A study of Mus musculus with 8 samples.

Results

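The genes of the cytosolic ribosomal proteins were followed through 2 stages of B cell development in control and *Upf1*-deficient mice. They were taken from the count table by symbol, as protein-coding genes named *Rpl* or *Rps* with a number and an optional a, l or x, together with *Rplp0*, *Rplp1*, *Rplp2*, *Rpsa* and *Fau*. This rule found 82 of the 27179 genes listed, 50 of the large and 32 of the small subunit. It leaves out the mitochondrial ribosomal proteins, the S6 kinases and pseudogenes, and genes that just miss it, among them *Rps3a1*, *Rpl36al*, *Rpl22l1*, *Rpl7l1*, *Rps27rt* and *Rack1*, were kept apart for comparison.

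Total RNA, depleted of rRNA, came from B cell progenitors sorted by flow cytometry from the bone marrow of mice aged 8 to 16 weeks, male and female. All mice carried Upf1 Flox/Flox, in which loxP sites flank exons 4 to 6 of *Upf1*, and Igh B1-8hi/+, a knock-in of a rearranged heavy chain gene. Mice with Mb1 Cre/+ (cKO) delete the flanked exons in the B lineage, where the *Mb1* locus, which is *Cd79a*, drives Cre, and mice with Mb1 +/+ served as control (Ctrl). Each of the 4 groups (Ctrl and cKO early LPre-B cells, Ctrl and cKO sPre-B cells) had 2 libraries, called replicates 1 and 2, and whether libraries of the same number share an animal is not given in the sources used here.

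Ribosomal proteins are made in nearly equal numbers, since each ribosome needs a copy of almost every one, and dividing cells spend much of their synthesis on them. Their mRNAs begin with a run of pyrimidines, the terminal oligopyrimidine motif, through which LARP1 and the kinase mTOR control their translation. Some of them also regulate their own amount by splicing: an excess of the protein favours a transcript with an early stop codon, and such transcripts are removed by nonsense-mediated mRNA decay (NMD), the pathway in which UPF1 is the central helicase. Early LPre-B cells are large and cycling, whereas sPre-B cells are small and resting.

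Library totals lay between 68516857 and 160426338 counts, so counting error was small for nearly every member. Levels are given as CPM, counts scaled to a common library size with TMM factors, and are shares of a library rather than amounts per cell. In bulk RNA, fewer cells of a type and less RNA per cell cannot be told apart. The gene-level count of *Upf1* was not lower in the libraries labelled cKO (244 to 293 CPM, against 186 to 237 CPM in Ctrl), and most exons counted lie outside the deleted part, so that it does not check the label. *Cd79a*, the site of the Cre insertion, was lower in each library labelled cKO (160 to 405 CPM) than in Ctrl libraries from the matching stage (543 to 1602 CPM). *Xist* stood at 2.14 and 3.90 CPM in both Ctrl libraries of replicate 2 and at 3126 to 3762 CPM in the other 6, and the Y-linked *Ddx3y* at 82.8 and 119 CPM in those 2 and at most 0.108 CPM elsewhere. Each Ctrl group thus held a library of either pattern, whereas both cKO groups held libraries of 1 pattern only. Counting ignored strand, and 18 of the 82 genes overlap another gene, among them *Rps2*, *Rpsa*, *Rpl5*, *Rpl22* and *Rps27a*, so that their counts are uncertain. All 8 pre-B markers were detected in every library. Summed markers of erythroid (4 genes, 8.83 to 26.7 CPM), myeloid (5 genes, 12.8 to 88.5 CPM), T (3 genes, 0.523 to 1.41 CPM) and plasma cells (3 genes, 35.6 to 109 CPM) stayed low, none of them at 0 in all libraries. The myeloid sum was 27.8 to 88.5 CPM in sPre-B cells and 12.8 to 34.7 CPM in early LPre-B cells, and its part in the stage comparisons was not tested.

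The 82 genes together took a smaller share of the RNA in small than in large pre-B cells. In Ctrl early LPre-B cells they made up 3.79% and 3.01% of all counts in replicates 1 and 2, and in the libraries labelled cKO 3.51% and 3.59%. In sPre-B cells the share was 2.07% and 1.75% in Ctrl and 1.88% and 1.92% in cKO. Every early LPre-B library stood above every sPre-B library. The replicates of Ctrl early LPre-B cells were the farthest apart. There all 80 genes tested were higher in replicate 1, by a median of 1.36-fold, against 1.17-fold in Ctrl sPre-B cells and 0.968-fold and 0.958-fold in the cKO groups. This spread enters every comparison that uses Ctrl early LPre-B cells.

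**Figure D1:**
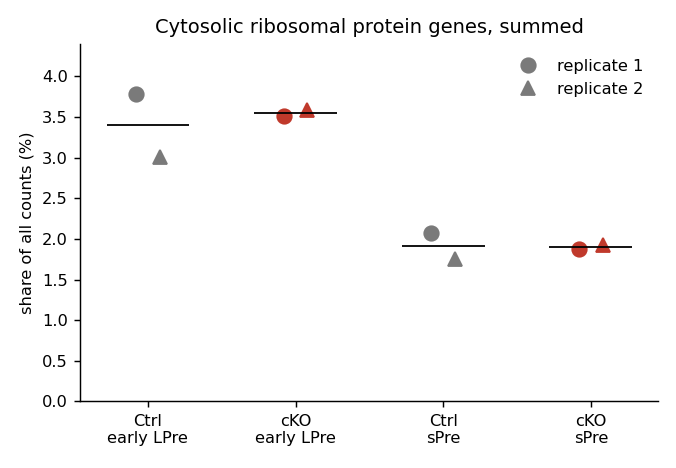
Share of all counts (%) taken by the 82 cytosolic ribosomal protein genes in each library. Circles and triangles are replicates 1 and 2, grey is Ctrl, red is cKO and the line is the mean of 2 libraries. The 4 early LPre-B libraries lie between 3.01% and 3.79%, all above the 4 sPre-B libraries, which lie between 1.75% and 2.07%.

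To ask how the genes changed as the cells matured, sPre-B cells were compared with early LPre-B cells within each genotype. In Ctrl, 80 of the 82 genes passed the expression filter, 76 fell and 0 rose by edgeR's quasi-likelihood test at an adjusted *P* under 0.05, and 76 had an unadjusted *P* under 0.05. Over all 17700 genes tested, 31.1% fell and 29.1% rose. The median Log2FC of the 80 was -0.95, a 1.94-fold lower level, whereas the median of all genes was 0.02. In cKO, 76 fell and 1 rose, the median Log2FC was -0.94 and that of all genes was 0.05. There the share of all genes that fell was 31.1% and the share that rose was 31.6%. In both comparisons, which share no library, 75 genes fell, and the share of all genes that fell in both was not counted. Across the 80 genes the Log2FC of the stage change in Ctrl and in cKO correlated with a Pearson's r of 0.84 and a Spearman's rho of 0.86, given as a description, since genes of the same libraries are not independent.

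Both subunits fell. In Ctrl, 46 of 48 genes of the large subunit fell, with a median Log2FC of -0.89, and 30 of 32 of the small subunit, with a median of -1.03. In cKO the numbers were 47 of 48 (median -0.93) and 29 of 32 (median -0.96). The fall was uneven among genes, and the middle part of the 80 in Ctrl reached from -1.18 to -0.81 on the Log2FC scale.

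The small-subunit genes *Rps2* and *Rpsa* fell the most in both genotypes. *Rps2* (chr17:24718121-24721927, GRCm38) encodes a protein near the entry of the mRNA channel. At the early stage its level was 1228 and 799 CPM in Ctrl and 899 and 870 CPM in cKO. In sPre-B cells it was 216 and 182 CPM in Ctrl and 207 and 233 CPM in cKO. All 4 early LPre-B libraries were above all 4 sPre-B libraries. Its Log2FC was -2.35 ± 0.21 (SE) in Ctrl and -2.01 ± 0.20 in cKO (edgeR, adjusted *P* = 2.17e-05 and 4.89e-05), a 5.09-fold lower level in Ctrl. *Rpsa*, whose product is also known as the laminin receptor, went from 1700 and 1255 CPM to 426 and 329 CPM in Ctrl and from 1219 and 1294 CPM to 341 and 369 CPM in cKO. It fell by 1.97 ± 0.19 on the log2 scale in Ctrl and by 1.82 ± 0.19 in cKO (edgeR, adjusted *P* = 3.78e-05 and 5.76e-05).

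In Ctrl, *Rpl36a* and *Rpl14*, both of the large subunit, came next, and in cKO *Rpl36a* and *Rplp1*. *Rpl36a* went from 187 and 140 CPM to 49.1 and 43.1 CPM in Ctrl and from 166 and 158 CPM to 45.4 and 47.1 CPM in cKO. The Log2FC was -1.82 ± 0.14 in Ctrl and -1.81 ± 0.14 in cKO (edgeR, adjusted *P* = 9.79e-06 and 1.02e-05). *Rpl14* went from 438 and 313 CPM to 111 and 101 CPM in Ctrl, with a Log2FC of -1.82 ± 0.15, and from 336 and 354 CPM to 113 and 118 CPM in cKO, with a Log2FC of -1.58 ± 0.15. For both genes the stages did not overlap in either genotype.

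The 3 genes of the stalk, the flexible arm of the large subunit that recruits elongation factors, fell more than the median member. *Rplp0*, the base of the stalk, went from 1835 and 1375 CPM to 556 and 439 CPM in Ctrl, a Log2FC of -1.69 ± 0.18. The acidic proteins that dimerize on it behaved likewise: *Rplp1* had a Log2FC of -1.69 ± 0.20 and *Rplp2* of -1.64 ± 0.20. In cKO the values were -1.59 ± 0.18 for *Rplp0*, -1.79 ± 0.20 for *Rplp1* and -1.30 ± 0.20 for *Rplp2* (edgeR, adjusted *P* between 7.25e-05 and 0.00055 over the 6 tests). *Rplp1* was the fourth lowest in cKO, where it went from 446 and 508 CPM to 125 and 151 CPM.

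*Rpl5* and *Rpl11*, which bind 5S rRNA and, when free of ribosomes, restrain MDM2, fell less than the median member. *Rpl5* had a Log2FC of -0.82 ± 0.17 in Ctrl and -0.82 ± 0.17 in cKO, and *Rpl11* of -0.84 ± 0.16 and -0.76 ± 0.16 (edgeR, adjusted *P* between 0.00167 and 0.00282). In Ctrl *Rpl5* went from 838 and 607 CPM to 441 and 379 CPM, and *Rpl11* from 455 and 322 CPM to 227 and 206 CPM.

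A few genes did not fall. *Rps27* (chr3:90212667-90213648), a small-subunit protein with a zinc finger, was measured in Ctrl at 313 and 212 CPM early and 282 and 228 CPM late, so that the stages overlapped. In cKO it was 221 and 216 CPM and then 219 and 218 CPM. Its Log2FC was -0.05 ± 0.18 in Ctrl and 0.00 ± 0.18 in cKO, with adjusted *P* of 0.837 and 0.998 by edgeR. *Fau* (chr19:6057947-6059524), which encodes RPS30 fused to a ubiquitin-like protein, went from 537 and 403 CPM to 431 and 381 CPM in Ctrl, and from 374 and 393 CPM to 387 and 379 CPM in cKO. Its Log2FC was -0.21 ± 0.15 in Ctrl and 0.00 ± 0.15 in cKO (edgeR, adjusted *P* = 0.239 and 0.996). *Rps27a*, the other fusion among the 82 and one with ubiquitin itself, fell by 1.22 ± 0.22 on the log2 scale in Ctrl and by 0.92 ± 0.22 in cKO. *Rpl17* (-0.41 ± 0.14, edgeR adjusted *P* = 0.0354) and *Rps9* (-0.45 ± 0.16, adjusted *P* = 0.0376) passed the test in Ctrl with small falls, and in cKO *Rps9* had a Log2FC of -0.32 ± 0.16 and did not pass (adjusted *P* = 0.115).

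**Figure D2:**
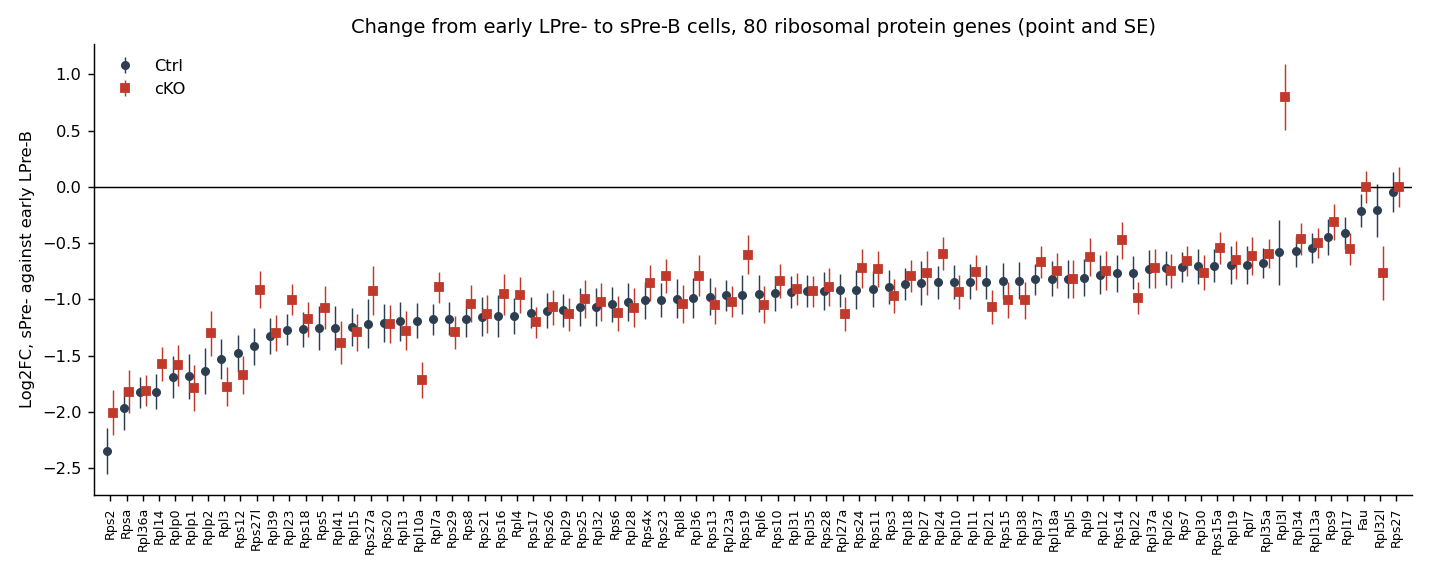
Log2FC from early LPre- to sPre-B cells for the 80 ribosomal protein genes that passed the filter, ordered by the value in Ctrl (dark circles), with cKO in red squares and bars of 1 SE. Nearly all points lie below 0, *Rps2* is lowest at -2.35 in Ctrl and -2.01 in cKO, and *Rps27* and *Fau* lie close to 0.

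Apart from *Rpl22*, the paralogs stood out by a low level. *Rpl10l*, a testis paralog of *Rpl10*, had 0 counts in all 8 libraries, which allows a level of up to 0.0187 to 0.0438 CPM by library (3 counts, counting error only). *Rpl39l* had between 0.02 and 0.11 CPM and did not pass the filter. *Rpl3l*, known from muscle, went from 5.69 and 4.55 CPM to 3.27 and 3.57 CPM in Ctrl, and from 1.78 and 1.96 CPM to 2.24 and 4.24 CPM in the libraries labelled cKO. It was the single gene that rose in cKO (Log2FC 0.80 ± 0.29, edgeR adjusted *P* = 0.0397), while in Ctrl its Log2FC was -0.58 ± 0.29 (adjusted *P* = 0.112). The call in cKO was lost in 7 of 8 fits that left out a library. *Rps27l*, a p53 target, fell by 1.42 ± 0.17 on the log2 scale in Ctrl and by 0.92 ± 0.16 in cKO. *Rpl22*, which is needed for lymphocyte development, fell by 0.76 ± 0.14 in Ctrl and by 0.99 ± 0.14 in cKO. *Rpl32l* (chr10:20208439-20209030) is a protein-coding gene in RefSeq but a processed pseudogene in GENCODE, lies within *Map7*, and had only 1.04 to 2.95 CPM. *Rps4l*, a transcribed pseudogene and so no member, had 1.71 to 2.63 CPM.

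Levels of different genes were compared per kilobase of the principal GENCODE transcript, on the scale of mean CPM per kilobase over the 8 libraries. Of the 81 genes with any count, 74 lay within 4-fold of the median of 371. *Rpl41*, the smallest ribosomal protein, was highest at 863, followed by *Rps9* at 830 and *Fau* at 808. The lowest were *Rpl3l* at 2.48, *Rpl39l* at 0.0681 and *Rpl10l* at 0. The order depends on the transcript chosen: with the longest coding transcript *Rpl41* stayed first, *Rps9* moved to rank 26 and *Fau* to rank 15. Reads that fit a processed copy elsewhere may also be missing, and the 34 ribosomal protein pseudogenes with a name ending in -ps together held 321 to 835 CPM.

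The pyrimidine run was looked for around the RefSeq start, where 62 of the 82 genes had a promoter sequence. On the gene's own strand, a C followed by at least 4 bases that are each C or T began within 5 bases of the start in 30 of the 62, or 48.4%, against 21.2% of 27025 genes with a promoter. Exactly at the start the run was found in 15 of 62, or 24.2%, against 3.01% of all. *Rpl32l*, with a run and a small stage change in Ctrl (Log2FC -0.21), is left out below. Each line goes from 30 bases before the start to 16 bases from it, with the run in capitals. The sequence is shown for 5 genes that have a run, taken from those with the smallest and the largest stage changes. They are *Rps27* at chr3:90213633-90213678 (minus strand), *Fau* at chr19:6057917-6057962, *Rpl14* at chr9:120571487-120571532, *Rplp2* at chr7:141447621-141447666 and *Rps2* at chr17:24720033-24720078 (plus strand, GRCm38).
Rps27: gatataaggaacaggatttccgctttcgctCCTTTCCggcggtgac
Fau: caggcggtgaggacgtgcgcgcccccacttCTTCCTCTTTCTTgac
Rpl14: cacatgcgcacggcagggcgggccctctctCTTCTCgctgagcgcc
Rplp2: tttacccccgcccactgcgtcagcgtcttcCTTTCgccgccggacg
Rps2: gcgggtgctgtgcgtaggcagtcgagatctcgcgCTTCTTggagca

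A run within 5 bases of the start was thus present in genes that fell strongly and in genes that did not fall. In *Rps2* it begins 4 bases after the start, so that *Rps2* counts below among the genes without a run at the start. The 15 genes with a run exactly at the start had a median stage Log2FC of -0.95 in Ctrl and -1.01 in cKO. The 45 tested genes with a promoter but no run at the start had medians of -0.92 and -0.91. In Ctrl 12 of the 15 fell, and 44 of the 45. An intron-encoded snoRNA lies within 29 of the 82 genes, and all 29 fell in both genotypes. Of the 51 tested genes without one, 47 fell in each genotype, beside 31.1% of all genes. The median in Ctrl was -0.98 with a snoRNA and -0.94 without.

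The second question was what loss of *Upf1* did to these genes. In early LPre-B cells, 3 of the 80 genes stood higher and 1 stood lower with the cKO label by edgeR at an adjusted *P* under 0.05, beside 14.5% of all genes higher and 16.9% lower. The median Log2FC was -0.18, and -0.06 over all genes, with 70 of 80 values below 0, but with library totals in place of TMM the medians were 0.00 and 0.11. In sPre-B cells 1 was higher and 2 were lower, beside 19.8% and 14.9% of all genes, with a median of -0.09, and 0.01 over all genes. That median was -0.03 without Ctrl sPre-B replicate 1 and -0.24 without replicate 2. The median in early LPre-B cells rested on the Ctrl replicates. It was 0.11 without replicate 1 of Ctrl and -0.34 without replicate 2. The number of genes higher was 6 without Ctrl replicate 1, 1 without Ctrl replicate 2, 0 without cKO replicate 1 and 1 without cKO replicate 2, beside 12.6%, 11.4%, 9.06% and 9.17% of all genes in those fits, and the number lower was 12 without Ctrl replicate 2 (14.8% of the 81 tested there, beside 11.1% of all genes in that fit). Without both Ctrl libraries of replicate 2, so that the remaining libraries had the same *Xist* and Y-linked pattern, 25 were lower at the early stage (30.9%, beside 11.6% of all genes) and 17 at the later one (of 81, beside 12.4% of all genes). In sPre-B cells none was higher without Ctrl replicate 2 or without either cKO replicate of that stage, and 8 were lower without Ctrl early LPre-B replicate 1 or replicate 2, beside 18.0% and 17.4% of all genes.

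Several marker sums also moved with genotype, and their part was not tested. At the early stage the plasma cell sum was 41.5 and 47.3 CPM in cKO against 89.3 and 74.1 CPM in Ctrl, the erythroid sum as low as 8.83 CPM in cKO against 14.2 and 19.2 CPM in Ctrl, and the myeloid sum 17.6 and 12.8 against 21.7 and 34.7 CPM. In sPre-B cells the plasma cell sum was 35.6 and 59.1 CPM against 109 and 69.8 CPM, the erythroid sum at most 17.9 against at least 22.1 CPM, and the myeloid sum 27.8 and 61.6 against 71.3 and 88.5 CPM. The sum of the 2 early-stage markers *Kit* and *Spn* was 124 and 140 CPM in cKO against 217 and 199 CPM in Ctrl at the early stage. The sum of the late-stage markers was 23.5 and 32.0 CPM against 42.0 and 59.3 CPM there. Its 2 genes had a Log2FC of -1.02 and 0.01, so that 1 of them was not lower. The sum of the 8 pre-B markers, which include *Cd79a*, was 2284 and 2359 CPM in cKO against 3221 and 3109 CPM in Ctrl at the early stage, and 4528 and 4414 CPM against 5487 and 6284 CPM in sPre-B cells. Of these 8 genes, 7 had a Log2FC below 0 at the early stage. In sPre-B cells 4 were below and 4 above 0, between -2.08 and 0.88, so that the lower sum does not describe the list. None of the sums given so far overlapped between genotypes, but others did. In sPre-B cells the *Kit* and *Spn* sum was 49.6 and 63.0 CPM in cKO against 61.5 and 49.2 CPM in Ctrl. The late-stage sum there was 631 and 667 CPM against 654 and 640 CPM. The T cell sum was 0.965 and 0.523 against 0.579 and 0.872 CPM at the early stage, and 1.41 and 1.20 against 0.768 and 1.19 CPM in sPre-B cells. The share of all genes without overlap was not counted.

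The 3 genes that were higher in early LPre-B cells were *Rpl10a*, *Rpl3* and *Rpl12*, all of the large subunit and all in a list of 5 genes known for unproductive splicing (with *Rps9* and *Rps3*) that was drawn up with earlier results of these data known. *Rpl10a* (chr17:28328471-28331033) forms part of the mobile L1 stalk. Its level at the early stage was 579 and 424 CPM in Ctrl and 813 and 809 CPM in cKO, so that both cKO libraries were above both Ctrl libraries. The Log2FC was 0.69 ± 0.16, a 1.62-fold higher level (edgeR, adjusted *P* = 0.0106). In sPre-B cells it was 234 and 206 CPM in Ctrl and 236 and 257 CPM in cKO, a Log2FC of 0.16 ± 0.16 (adjusted *P* = 0.452).

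*Rpl3* (chr15:80077781-80083406) lies close to the peptidyl transferase centre and is one of the first proteins to join the large subunit. Its values in early LPre-B cells were 1112 and 815 CPM in Ctrl and 1496 and 1561 CPM in cKO, a Log2FC of 0.67 ± 0.17 (edgeR, adjusted *P* = 0.0192). In sPre-B cells they were 364 and 302 CPM in Ctrl and 438 and 454 CPM in cKO, a Log2FC of 0.42 ± 0.17 (adjusted *P* = 0.0915). The libraries did not overlap between genotypes at either stage, although only the first comparison passed.

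*Rpl12* (chr2:32961712-32964045) encodes a protein at the base of the stalk and was the one gene higher at both stages. It was measured at 533 and 371 CPM in Ctrl and 644 and 741 CPM in cKO early LPre-B cells, a Log2FC of 0.62 ± 0.17 (edgeR, adjusted *P* = 0.0273). In sPre-B cells it was 280 and 245 CPM in Ctrl and 411 and 416 CPM in cKO, a Log2FC of 0.65 ± 0.17 (adjusted *P* = 0.0195). All 4 cKO libraries lay above the Ctrl libraries of their stage. Over the 18 other fits of each comparison, *Rpl10a* passed in 17, *Rpl3* in 15 and *Rpl12* in 14 in early LPre-B cells, and *Rpl12* in 15 in sPre-B cells.

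The other genes of that list did not pass. *Rps9* (chr7:3703954-3706897), needed early in small-subunit assembly, was measured at 736 and 560 CPM in Ctrl and 722 and 795 CPM in cKO early LPre-B cells, which overlapped. In sPre-B cells it was 517 and 434 CPM in Ctrl and 606 and 613 CPM in cKO, without overlap, and the Log2FC was 0.36 ± 0.16 (edgeR, adjusted *P* = 0.116). *Rps3*, which also takes part in DNA repair, had a Log2FC of -0.14 ± 0.15 in early LPre-B cells and -0.22 ± 0.15 in sPre-B cells. *Rps12*, outside the list, was the fourth highest in early LPre-B cells at 342 and 245 CPM in Ctrl and 379 and 408 CPM in cKO, with a Log2FC of 0.42 ± 0.16 (adjusted *P* = 0.08). It passed in 7 of 18 other fits. *Rps19*, mutated in Diamond-Blackfan anaemia, ranked next in sPre-B cells with 250 and 217 CPM in Ctrl and 296 and 251 CPM in cKO, a Log2FC of 0.23 ± 0.17 (adjusted *P* = 0.338).

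**Figure D3:**
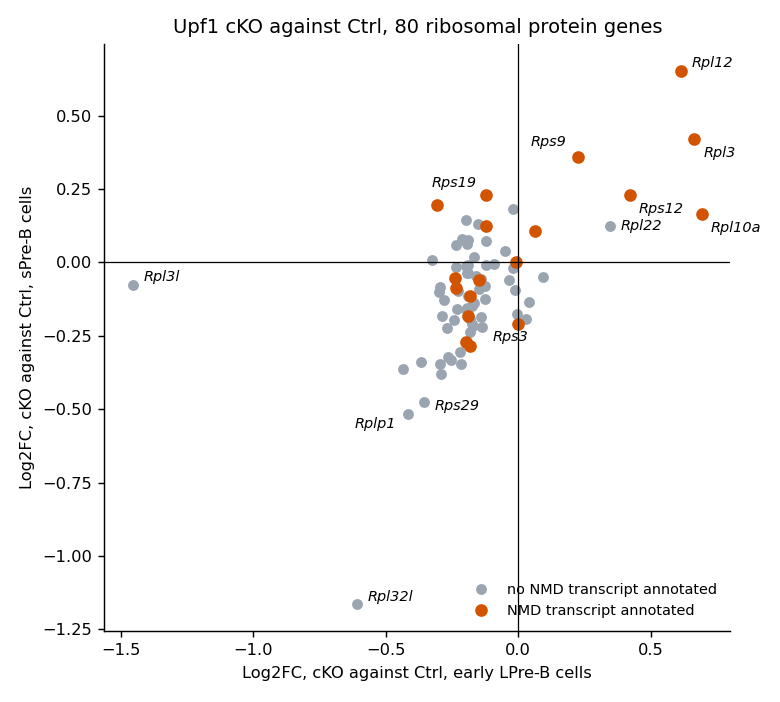
Log2FC of cKO against Ctrl in early LPre-B cells (horizontal) and in sPre-B cells (vertical) for 80 ribosomal protein genes. Orange points have a transcript annotated as a target of nonsense-mediated decay (NMD) in GENCODE, and grey points have none. *Rpl12*, *Rpl3*, *Rpl10a*, *Rps12* and *Rps9* lie at the upper right, while most genes lie slightly below 0 in early LPre-B cells under TMM scaling.

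After these values had been seen, the annotation was searched for transcripts of the NMD class. GENCODE M21 lists such a transcript for 18 of the 82 genes (22.0%) and for 4574 of 21924 coding genes (20.9%). *Rpl3*, *Rpl10a*, *Rpl12*, *Rps9* and *Rps12* are among the 18, as are *Rps19* and *Rpsa*, and *Rps3* and *Rpl22* are not. In early LPre-B cells the Log2FC of cKO against Ctrl was above 0 for 6 of these 18 and for 4 of the other 62 tested, with medians of -0.12 and -0.19. In sPre-B cells it was above 0 for 10 of 18 and 12 of 62, with medians of 0.05 and -0.11. These counts are a description and were not tested.

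*Rpl22*, which lacks one, lay above *Rps9* in early LPre-B cells, with 123 and 90.8 CPM in Ctrl and 148 and 124 CPM in cKO (Log2FC 0.35 ± 0.14, edgeR adjusted *P* = 0.0953). The bases that the NMD transcript holds and the principal transcript lacks are shown for 5 of the 18 genes, chosen after their values were seen, from the GENCODE M21 transcripts on GRCm38, 5′ to 3′ on the gene's strand. The early stop codon is in capitals, and where the extra segment runs on, at most 14 bases after the stop are printed. In *Rpl3* (Rpl3-205) an exon begins 180 bases earlier, chr15:80081032-80081211 on the minus strand, and the stop is the last codon of the added segment. In *Rpl10a* (Rpl10a-203) an exon runs on for 233 bases and the first 30 are shown, chr17:28329048-28329077. That transcript also holds 3 extra bases at chr17:28328811-28328813, which are not shown. In *Rpl12* (Rpl12-201) an exon runs on for 121 bases, chr2:32961840-32961960, and the stop TGA follows in a later exon at chr2:32962594-32962596, so that the line holds no capitals. In *Rps9* (Rps9-210) a separate exon of 174 bases is included, of which the first 27 are shown, chr7:3706008-3706034. In *Rps12* (Rps12-204) an exon runs on for 139 bases on the minus strand, of which 120 are shown, chr10:23786644-23786763. All 5 segments lie in introns of the principal transcript.
Rpl3: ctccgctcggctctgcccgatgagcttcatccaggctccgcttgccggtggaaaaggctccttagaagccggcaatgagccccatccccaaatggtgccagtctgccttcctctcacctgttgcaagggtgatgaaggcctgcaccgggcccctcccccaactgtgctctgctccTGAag
Rpl10a: gttggcaccgctcTAAccccacccagccct
Rpl12: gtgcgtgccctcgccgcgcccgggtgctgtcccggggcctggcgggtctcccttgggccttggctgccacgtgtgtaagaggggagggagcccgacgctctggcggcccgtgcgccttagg
Rps9: cctttggagcTGAcagatgtgagctta
Rps12: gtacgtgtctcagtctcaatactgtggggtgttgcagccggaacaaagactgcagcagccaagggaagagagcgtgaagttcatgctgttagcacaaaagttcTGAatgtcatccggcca

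A count per gene sums these transcripts with the productive ones, so the share of each form was not measured here.

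Because the Ctrl early LPre-B replicates differed in the level of all 80 genes, each gene was also set against the median member of its own library, as the difference of log2 CPM. This scale was added after seeing the data and carries no test. *Rpl10a* was 0.26 and 0.20 above the median member in Ctrl and 1.11 and 1.01 above it in cKO early LPre-B cells. For *Rpl3* the values were 1.21 and 1.14 in Ctrl and 1.99 and 1.96 in cKO, and for *Rpl12* they were 0.15 and 0.01 in Ctrl and 0.77 and 0.88 in cKO. On this scale the Ctrl replicates lay within 0.14 of each other for these 3 genes. *Rps12* went from -0.50 and -0.59 to 0.01 and 0.02, and *Rps9* from 0.61 and 0.60 to 0.94 and 0.98. In sPre-B cells the same 5 genes were higher in both cKO libraries than in both Ctrl libraries. *Rpl12* differed by 0.71, *Rpl3* by 0.49, *Rps9* by 0.42, *Rps12* by 0.29 and *Rpl10a* by 0.22, which ranked them 1, 2, 3, 4 and 8 of 80. At the early stage the ranks were 3, 2, 6, 4 and 1. The fifth rank at the early stage was held by *Rpl22*, which has no NMD transcript and was higher in both cKO libraries at each stage, by 0.47 in early LPre-B and 0.18 in sPre-B cells. *Rps3* lay at 0.87 and 0.85 in Ctrl and 0.88 and 0.83 in cKO early LPre-B cells, which overlapped. In sPre-B cells it was lower in cKO, at 0.82 and 0.85 against 0.99 and 0.99 in Ctrl, a difference of -0.16.

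**Figure D4:**
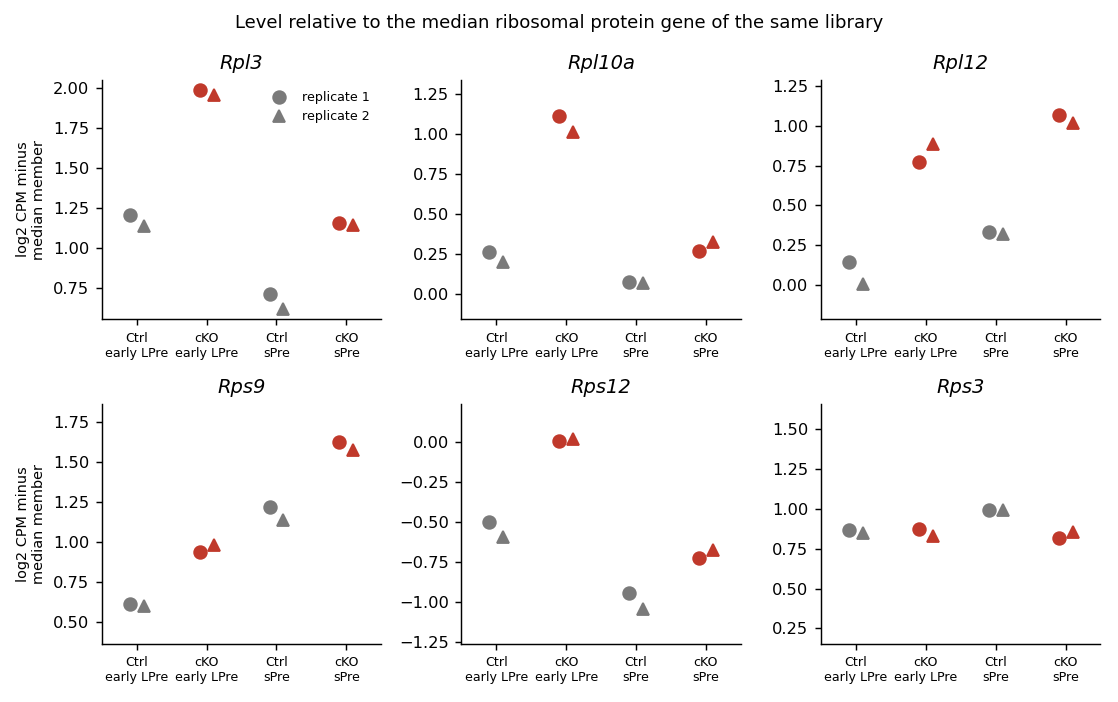
Level of 6 genes in each library as log2 CPM minus the median of the 80 ribosomal protein genes of that library. Circles and triangles are replicates 1 and 2, grey is Ctrl and red is cKO, and each vertical axis spans the same range. For *Rpl3*, *Rpl10a*, *Rpl12*, *Rps9* and *Rps12* both cKO libraries lie above both Ctrl libraries at each stage, whereas for *Rps3* the genotypes overlap at the early stage and cKO lies lower in sPre-B cells.

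Lower in the libraries labelled cKO were weakly expressed genes and a single gene with a high level. *Rpl3l* was 1.78 and 1.96 CPM in cKO against 5.69 and 4.55 CPM in Ctrl at the early stage, a Log2FC of -1.45 ± 0.29 (edgeR, adjusted *P* = 0.00661), and passed in all 18 other fits. In sPre-B cells its Log2FC was -0.08 ± 0.29. *Rpl32l* was 1.04 and 1.21 CPM in cKO against 2.12 and 2.94 CPM in Ctrl sPre-B cells, a Log2FC of -1.16 ± 0.24 (adjusted *P* = 0.00666), with no overlap, and passed in 17 of 18 other fits. At the early stage it had a Log2FC of -0.61 ± 0.24 (adjusted *P* = 0.082).

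*Rps29* (chr12:69157722-69159186), another small-subunit protein with a zinc finger, was 91.1 and 95.0 CPM in cKO against 140 and 119 CPM in Ctrl sPre-B cells, a Log2FC of -0.48 ± 0.14 (edgeR, adjusted *P* = 0.0330), and passed in 15 of 18 other fits. In early LPre-B cells it was 218 and 238 CPM against 334 and 250 CPM, and the Log2FC of -0.36 ± 0.14 did not pass (adjusted *P* = 0.0945). *Rplp1* came next, at -0.41 ± 0.20 in early LPre-B and -0.52 ± 0.20 in sPre-B cells (adjusted *P* = 0.146 and 0.0752). *Rpl7* stood at -0.44 ± 0.17 in early LPre-B cells and *Rpl10*, which completes the large subunit in the cytoplasm, at -0.38 ± 0.15 in sPre-B cells (adjusted *P* = 0.0808 and 0.0788). Over the 18 other fits the Log2FC of *Rplp1* ranged from -0.62 to -0.06 in early LPre-B and from -0.69 to -0.38 in sPre-B cells. *Rpl7* ranged from -0.58 to -0.17 and *Rpl10* from -0.51 to -0.32 at the stages named. All 3 genes passed in a minority of those fits. On the scale of the median member, *Rps29*, *Rplp1*, *Rpl7* and *Rpl10* were lower in both cKO than in both Ctrl libraries at each stage. *Rpl10*, *Rpl36a*, *Rpl39* and *Rps4x* lie on the X chromosome. None of these 4 passed in either comparison of genotypes, apart from *Rpl10* in some of the other fits of sPre-B cells.

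The 2 comparisons of genotypes share no library. Across the 80 genes their Log2FC correlated with a Pearson's r of 0.56 and a Spearman's rho of 0.49, and without *Rpl3l* and *Rpl32l* with an r of 0.67 and a rho of 0.49, given as a description. Whether the effect of *Upf1* differed between the stages was tested with the interaction of stage and genotype. None of the 80 genes passed by edgeR's quasi-likelihood test, 2 had an unadjusted *P* under 0.05, and 1 passed by edgeR's likelihood-ratio test and 1 by DESeq2. With a replicate block within genotype, 2 passed with a positive and 1 with a negative interaction, beside 7.68% and 4.42% of all genes. Among all genes 2.64% passed with a positive and 1.6% with a negative interaction. The 4 genes with the lowest *P* were *Rpl3l* (1.38 ± 0.41, adjusted *P* = 0.0997), *Rpl10a* (-0.53 ± 0.22, adjusted *P* = 0.216), *Rps27l* (0.50 ± 0.23, adjusted *P* = 0.257) and *Rpl32l* (-0.56 ± 0.34, adjusted *P* = 0.395).

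Genes that just miss the naming rule were read in the same fit. *Rack1*, of the small subunit, fell with stage by 0.87 ± 0.17 on the log2 scale in Ctrl, *Rpl36al* by 0.88 ± 0.14 and *Rps3a1* by 0.65 ± 0.15 (edgeR, adjusted *P* between 0.000532 and 0.00481), and all 3 fell in cKO too. *Rps27rt*, a processed copy of *Rps27*, had a stage Log2FC of -0.07 ± 0.18 in Ctrl and 0.06 ± 0.18 in cKO, at 17.4 to 25.8 CPM. Reads of *Rps27* and *Rps27rt* could be split between them, so that both values are uncertain. *Rpl22l1*, the paralog of *Rpl22*, went from 58.0 and 39.6 CPM to 19.9 and 16.1 CPM in Ctrl and from 41.2 and 52.0 CPM to 27.5 and 31.4 CPM in cKO. It was higher in cKO sPre-B cells with a Log2FC of 0.71 ± 0.20 (adjusted *P* = 0.0235), and in early LPre-B cells its Log2FC was -0.07 ± 0.20. *Rpl7l1*, a pre-ribosomal paralog of *Rpl7*, was higher in cKO early LPre-B cells with a Log2FC of 0.37 ± 0.09 (adjusted *P* = 0.0169).

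The ribosomal protein genes were set beside other genes of protein synthesis. Of all genes tested, 31.1% fell and 29.1% rose with stage in Ctrl, and 31.1% fell and 31.6% rose in cKO. Of 17 translation factors and related genes with a pyrimidine motif, 16 fell with stage in Ctrl and 13 in cKO, with median Log2FC of -0.64 and -0.65. *Nap1l1*, a histone chaperone, fell most in both (-2.02 ± 0.13 and -1.79 ± 0.13), and *Eif3f* did not pass in Ctrl at -0.05 ± 0.13. Of 50 genes of ribosome biogenesis, 38 fell and 1 rose in Ctrl, and 43 fell and 1 rose in cKO (medians -0.63 and -0.75). The nucleolar genes *Gnl3* in Ctrl (4.01-fold lower, edgeR adjusted *P* = 2.98e-06) and *Nop58* in cKO (Log2FC -2.28 ± 0.10) were lowest, and those that rose were *Sbds* in Ctrl (0.35 ± 0.08) and *Riok1* in cKO (0.36 ± 0.09). Of 78 mitochondrial ribosomal protein genes, 63 fell in Ctrl and 57 in cKO (medians -0.65 and -0.57). Of 39 proteasome genes, 33 fell in each (medians -0.73 and -0.62). The fall with stage was thus seen in each of these lists, and the median was lowest in the cytosolic ribosomal protein genes, a difference that was not tested.

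Counts between genotypes are given per list, and differences between lists were not tested. All genes passed at 14.5% higher and 16.9% lower in early LPre-B cells and at 19.8% and 14.9% in sPre-B cells. Of the 50 ribosome biogenesis genes, 21 were higher and 0 lower with the cKO label at the early stage, with a median Log2FC of 0.28, and 14 were higher and 1 lower in sPre-B cells, with a median of 0.16. *Nop56*, which belongs to box C/D snoRNPs, was highest in early LPre-B cells (1.26 ± 0.09, edgeR adjusted *P* = 6.98e-05) and *Gnl3*, nucleostemin, in sPre-B cells (1.16 ± 0.12, adjusted *P* = 0.000188). *Nop56*, *Gnl3* and *Gas5* host snoRNAs in their introns. Of the 17 translation factors, 0 were higher and 1 was lower in early LPre-B cells, and 0 were higher and 3 lower in sPre-B cells. *Hnrnpa1*, an RNA-binding protein, was lowest at both stages (-0.50 ± 0.11 and -1.03 ± 0.11). Of the mitochondrial genes 8 were higher and 5 lower at the early stage and 11 and 8 at the later one, with *Mrps18b* highest at both (1.07 ± 0.12 and 0.92 ± 0.12). Of the proteasome genes 1 was higher and 5 were lower at first, and 2 and 0 in sPre-B cells, *Psmb9* of the immunoproteasome being highest there (0.88 ± 0.12).

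**Figure D5:**
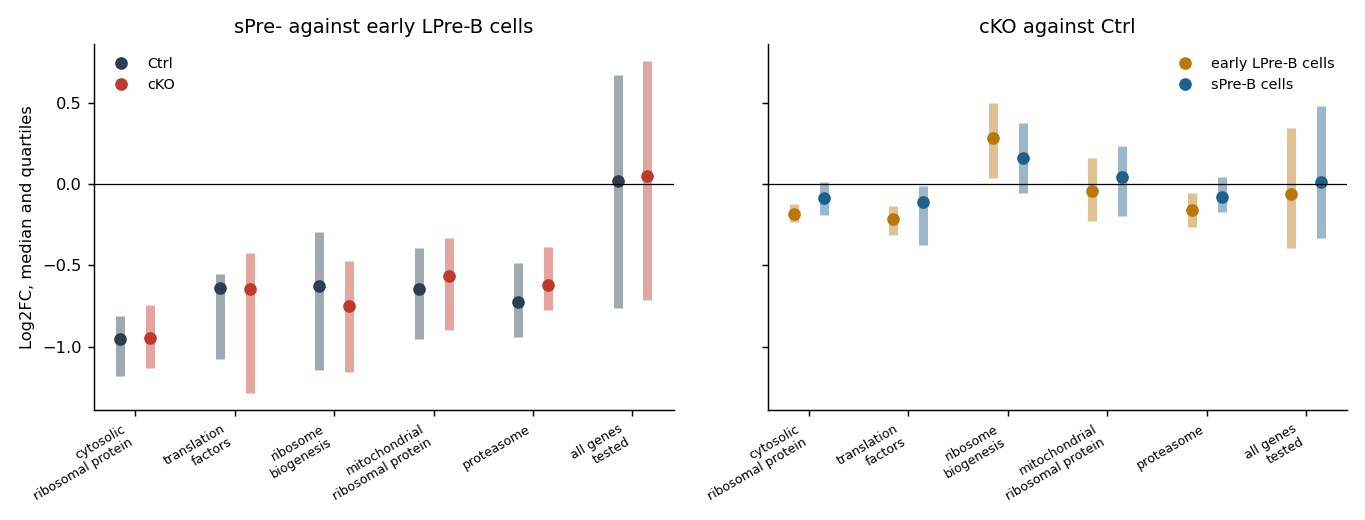
Median (point) and quartiles (bar) of the Log2FC over the genes of each list, for the stage change in Ctrl and cKO (left) and for cKO against Ctrl in early LPre- and sPre-B cells (right). The cytosolic ribosomal protein genes have the lowest median with stage, -0.95 in Ctrl and -0.94 in cKO, and the ribosome biogenesis genes have the highest median between genotypes, 0.28 and 0.16.

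*Gas5* and *Snhg1*, noncoding snoRNA host genes whose transcripts also begin with a pyrimidine motif and are known targets of NMD, were far higher in the libraries labelled cKO. *Gas5* stood at 108 and 112 CPM in Ctrl and 762 and 727 CPM in cKO early LPre-B cells, and at 68.5 and 84.5 CPM in Ctrl and 294 and 297 CPM in cKO sPre-B cells. Its Log2FC was 2.76 ± 0.12 and 1.95 ± 0.12 (edgeR, adjusted *P* = 1.08e-05 and 2.99e-05). *Snhg1* had a Log2FC of 3.73 ± 0.14 and 2.82 ± 0.13. Both fell with stage in Ctrl and more so in cKO, with an interaction of -0.81 ± 0.17 for *Gas5* and -0.91 ± 0.17 for *Snhg1* (adjusted *P* = 0.0342 and 0.0291).

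Of 9 regulators of pyrimidine-motif mRNAs, 2 rose and 3 fell with stage in each genotype, beside 29.1% and 31.1% of all genes in Ctrl and 31.6% and 31.1% in cKO. *Larp1*, which binds the motif, fell by 1.03 ± 0.10 on the log2 scale in Ctrl and by 0.99 ± 0.10 in cKO, and *Rps6kb2*, an S6 kinase, had the highest value in Ctrl (0.58 ± 0.13). Between genotypes 3 of the 9 were higher and 1 was lower in early LPre-B cells, beside 14.5% and 16.9% of all genes, and 3 were higher and 2 lower in sPre-B cells, beside 19.8% and 14.9%. *Rps6kb2* was again highest at both stages (0.94 ± 0.13 and 0.74 ± 0.13). *Eif4ebp2*, a repressor of cap-dependent translation, was lowest in early LPre-B cells (-0.91 ± 0.09). Its relative *Eif4ebp1* was higher in cKO early LPre-B cells (0.63 ± 0.16) and lower in cKO sPre-B cells (-0.62 ± 0.16), with an interaction of -1.25 ± 0.23 (edgeR, adjusted *P* = 0.0269).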

How the data were processed

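For each gene the authors deposited raw counts of read pairs, assigned by featureCounts after trimming with Trim Galore and HISAT2 alignment to mm10, paired-end and unstranded, with no normalization. Genes were named from RefSeq by Entrez identifier (25275 of 27179). edgeR 4.0.16 (R 4.3.3) gave TMM factors from 0.862 to 1.09. One model with a mean per group was fitted over all 8 libraries to the 17700 genes left by the expression filter. The 4 comparisons and the interaction were tested by quasi-likelihood, two-sided, with P adjusted over all genes by Benjamini-Hochberg. The code was tested on simulated data. P-values measure the spread between 2 libraries per group, which the labels do not tie to separate animals.

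Members and lists were chosen with earlier results of these data known. Named were the 4 highest and 4 lowest members of each comparison with at least 50 counts in every library of a group, the 4 lowest P of the interaction, the genes of 4 small lists (unproductive splicing, 5S rRNA, stalk, paralogs), the 3 highest and lowest per kilobase, the genes that just miss the naming rule (1 of them not reported here), and the extremes of other lists, not all of which are reported. Promoters come from RefSeq (GRCm38.p6) and transcripts from GENCODE M21. Alternatives were the likelihood-ratio test, DESeq2 1.42.0, other scalings, no filter, replicate blocks, fits of 4 libraries and fits without libraries. Where a genotype comparison and a stage comparison share Ctrl libraries, they are not independent.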

Additional observations from a re-analysis of the deposited data

How the results depend on the processing

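The stage comparisons kept their direction when a library was left out. In Ctrl the median Log2FC of the ribosomal protein genes then lay between -1.09 and -0.65, and that of all genes between 0.01 and 0.09. In cKO the medians lay between -0.98 and -0.91 for the ribosomal protein genes and between 0.02 and 0.05 for all genes. In cKO no ribosomal protein gene was higher with stage without both Ctrl libraries of replicate 2 or in a fit of 4 libraries (0 each). Between genotypes, leaving out a library gave 0 to 6 higher and 1 to 12 lower at the early stage, 0 to 1 higher and 1 to 8 lower in sPre-B cells, and 0 to 1 positive and 0 to 0 negative interactions. A group left with 1 library was assumed to vary like the others. Without both Ctrl libraries of replicate 2, 25 genes were lower at the early and 17 at the later stage, of 81 tested in each, a larger share than the 11.6% and 12.4% of all genes in those fits, whereas with all libraries the share was smaller. In early LPre-B cells 5 were higher with library totals and 2 lower with DESeq2, beside 21.2% and 18.2% of all genes in those fits. In sPre-B cells 2 were higher with DESeq2, library totals or a fit of 4 libraries, beside 19.4%, 22.1% and 18.9% of all genes, and 7 and 6 were lower with DESeq2 and the fit of 4 libraries, beside 18.3% and 16.5%. The cause was not tested. The interaction gave 1 with the likelihood-ratio test, DESeq2 or no filter, beside 5.67%, 6.35% and 4.71% of all genes. Library totals moved the median Log2FC of all genes from 0.02 to 0.22 in the Ctrl stage comparison and from -0.06 to 0.11 between genotypes at the early stage. The median of the ribosomal protein genes moved from -0.95 to -0.74 and from -0.18 to 0.00.

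The replicate numbers are shared by the groups, and deviations of same-numbered libraries correlated over 17700 genes with r = 0.40 between the Ctrl groups, 0.25 between the cKO groups, and 0.15 and 0.09 between genotypes at each stage, from 2 libraries per group. With the replicate block, 4 genes were higher and 1 lower at the early stage, and 1 higher and 2 lower in sPre-B cells, beside 2785 and 3261, and 3714 and 2909, of all 17700 genes. With the replicate block within genotype, the interaction gave 2 genes positive and 1 negative: *Rpl3l*, *Rps27l* and *Rpl10a*, beside 7.68% and 4.42% of all genes.

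Of 754 recomputed values of named genes, 668 kept direction and side of the threshold, 31 lost and 39 gained a call, and 16 changed sign, all uncalled. *Rps27* with stage gave 0.17 in Ctrl and 0.087 in cKO with library totals, and in cKO 0.014 without immunoglobulin genes and 0.00047 with the replicate block. *Fau* in cKO gave 0.086 with library totals and 0.014 without immunoglobulin genes, and *Rps3* between genotypes gave 0.040 with library totals in early LPre-B cells. With libraries left out, *Rps27* ran from -0.23 to 0.32 in Ctrl and from -0.022 to 0.013 in cKO, *Fau* from -0.33 to 0.064 and from -0.041 to 0.031, *Rpl32l* with stage in Ctrl from -0.41 to 0.073, and *Rps3* between genotypes from -0.27 to 0.11. The per-kilobase levels with another annotation's lengths were not run, since the count table holds no lengths.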
